A study of Bos taurus with 12 samples.

Results

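Genes that take up glucose, break down glycogen and glucose, and make or export lactate were described in adipose tissue of steers of 2 breeds, Japanese Black (JB) and Holstein (HS). The members were chosen by name: every probe set of the array annotated with exactly 1 symbol among SLC2A4, SLC2A1, HK2, PFKM, PYGM, ENO3, GYS1, LDHA, LDHB and SLC16A3. This gave 8 of the 10 genes, out of 9156 gene symbols named on the array, through 14 of its 24128 probe sets. HK2 and GYS1 were named by no probe set with a single symbol and were not analysed here. PFKM, LDHA and SLC16A3 had 3 probe sets each and the other 5 genes 1 each, and a gene is led here by its brightest probe set.

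The 4 groups were JB intramuscular fat (IMF), HS IMF, JB subcutaneous fat (SCF) and HS SCF, with 3 samples each; the IMF samples carry the numbers 1 to 3 and the SCF samples 4 to 6. All 12 came from steers on energy-rich feeding, so that no group with other feeding stands beside them. JB is a beef breed known for heavy marbling and HS a dairy breed. IMF is the marbling fat inside a muscle, and SCF is the layer under the skin. Labelled RNA of whole tissue was hybridised to the Affymetrix bovine array, which reads a gene as the brightness (signal) of a set of probes. The labels do not say whether the samples of a group, or the IMF and SCF samples, came from separate animals, so a p-value here measures only how far these samples spread, and some of that spread may be technical.

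Glucose enters fat and muscle cells through facilitative transporters, of which SLC2A4 (GLUT4) moves to the cell surface under insulin and SLC2A1 (GLUT1) serves basal uptake in most cells. Several steps that follow exist as tissue isoforms from separate genes: muscle carries its own glycogen phosphorylase (PYGM), phosphofructokinase (PFKM) and enolase (ENO3), while liver, brain and other tissues use general isoforms. Lactate dehydrogenase is built from A (muscle) and B (heart) subunits, and the lactate made in glycolytic cells leaves through the monocarboxylate transporter SLC16A3 (MCT4).

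Signals below are as deposited, and tests were run on quantile-normalized log2(signal + 16), a scale on which the change of dim genes is understated. The median signal lay between 77.6 and 88.3 in 11 arrays and was 58.8 in HS IMF 3. For the GAPDH control probes, the signal of the 3′ end over that of the 5′ end was 4.06 in HS SCF 5, against 1.19 to 2.40 on the other arrays. The precision rests on 3 arrays in a group and on how well they agree. The mean correlation of an array with the others of its group was 0.963 to 0.975 in the JB groups. It was 0.862 to 0.898 in HS IMF and 0.919 to 0.944 in HS SCF. The highest signal was 152036 in HS IMF 3 and 222742 in HS SCF 6, against 17138 to 21870 on the other arrays. Of the 14 member probe sets 13 passed the filter on dim probe sets, and the one left out belongs to SLC16A3. The PFKM probe set of lowest signal passed it through IMF alone.

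Between the depots, the muscle isoforms PYGM, ENO3 and PFKM were 21.5-fold to 54.8-fold higher in IMF than in SCF over both breeds, LDHA and SLC16A3, each through its brightest probe set alone, were higher by smaller amounts, and LDHB was lower. SLC2A4 and SLC2A1 did not pass the test. In all, 7 of the 13 tested member probe sets passed at an adjusted p below 0.05 (limma, Benjamini-Hochberg over 16811 probe sets), 6 of them higher and 1 lower in IMF. Over the whole array 11% of the probe sets passed, 4.66% of them as higher and 6.33% as lower. With each gene counted once, through its brightest probe set, 5 genes were higher, 1 was lower and 2 did not pass, with a median log2 difference of 1.24 against −0.06 over all probe sets tested. In 5 member probe sets every IMF sample lay above every SCF sample on the normalized scale, and 6.24% of all probe sets were without overlap in one direction or the other.

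The depots also differed in muscle fibre RNA. The skeletal muscle fibre marker list (contractile and other fibre genes such as ACTA1, MYH1, MB and TNNT3) had 22 of 27 genes measured. Of the 22, 19 passed as higher in IMF, and the median log2 difference was 6.57. Several markers were dim in SCF, with ATP2A1 at 0.23 to 12.9 and MYL2 at 0.02 in every HS SCF sample. Such genes entered the test through IMF, so the count of 19 is not taken as support. The size of the median depends on the constant added before the logarithm. The mean log2 level over the 22 genes ran from 11.5 to 12.7 in the 6 samples of IMF, against 5.75 to 7.96 in the 6 of SCF. The sum of their signals ran from 80535 to 189840 in IMF, against 5179 to 28245 in SCF. In the lowest of these sums, that of HS SCF 6, MYH7 gave 1923, CKM 2252 and MYL11 520. These genes were at 520 or more in every sample of both depots, so the sums in SCF do not stand for the whole list. Of these markers 1 was listed at 0 in 1 sample, TNNT1 in JB SCF 5. The adipocyte marker list (ADIPOQ, FABP4, LPL and others, 14 of 15 genes measured) was bright in both depots, with a mean log2 level between 10.3 and 12.2 in IMF and between 12.1 and 12.6 in SCF, but all 14 genes had a difference below 0, with a median of −0.86, and 2 of them, SCD and AQP7, passed as lower in IMF. Of other cell types, 7 of 9 smooth muscle and pericyte markers were higher in IMF (median 2.53), 9 of 10 macrophage markers were lower (median −2.17), and the 8 endothelial markers tested had a median of −0.05. Since every IMF sample carried more muscle fibre RNA than every SCF sample, depot and muscle fibre RNA cannot be told apart here, and their part in the differences below was not tested. In whole tissue, fewer cells of a type and less RNA per cell cannot be told apart either.

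**Figure D1:**
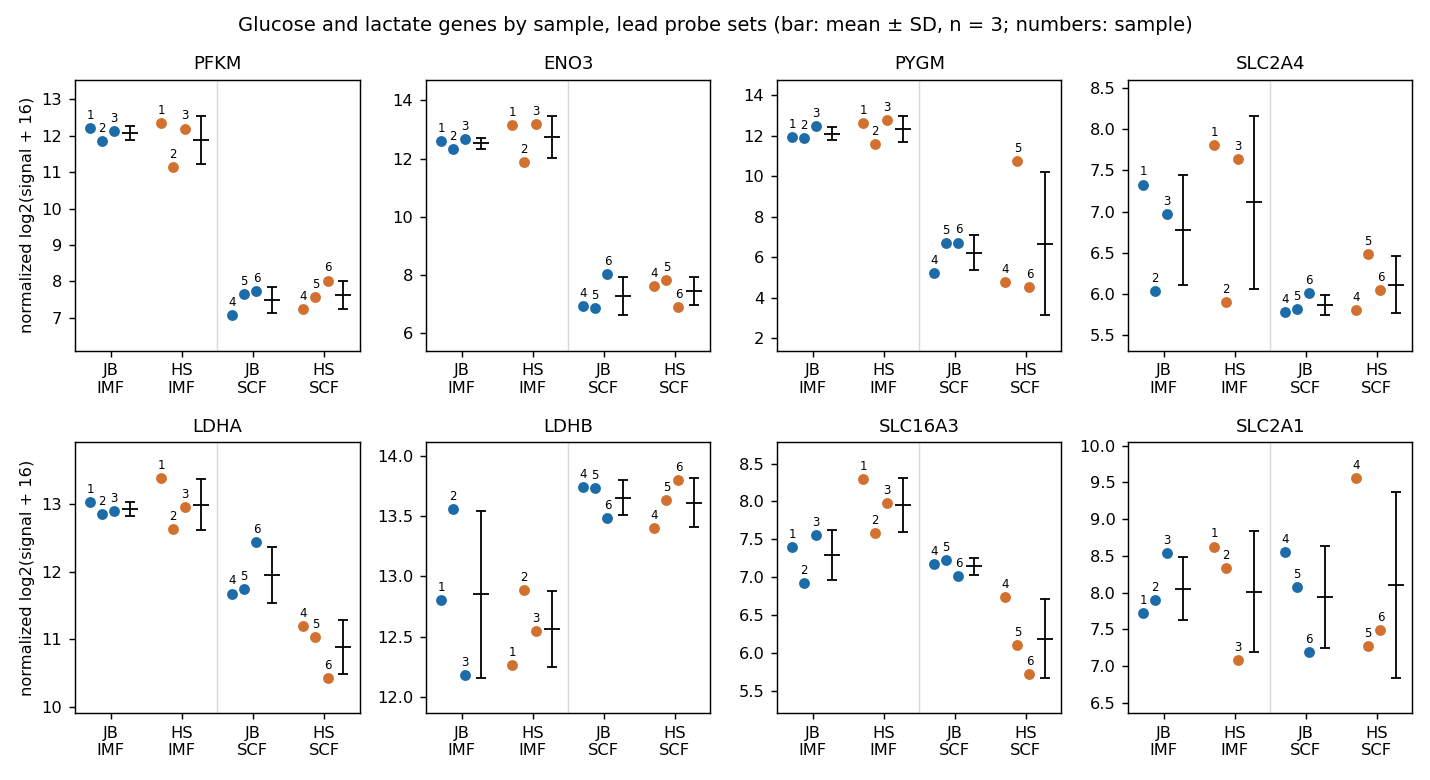
Each panel shows 1 gene through its brightest probe set, as normalized log2(signal + 16) in each of the 12 samples (points, with sample numbers), with the mean and SD of each group of 3 beside them; the vertical axes differ between panels and do not start at 0. PFKM, ENO3, PYGM and LDHA have every IMF sample above every SCF sample, while the depots overlap in SLC2A4, LDHB, SLC16A3 and SLC2A1.

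Neither glucose transporter had a depot difference that passed the test. SLC2A4 had signals of 153, 51.0 and 118 in JB IMF and 215, 43.7 and 109.55 in HS IMF, against 40.25, 41.6 and 50.9 in JB SCF and 39.1, 77.25 and 52.1 in HS SCF. In both breeds IMF samples 1 and 3 lay above all 6 SCF samples, and IMF sample 2 lay within their range. Group means on the normalized log2 scale were 6.78 ± 0.67 in JB IMF, 7.11 ± 1.05 in HS IMF, 5.87 ± 0.12 in JB SCF and 6.11 ± 0.35 in HS SCF (SD, n = 3 each). The log2 difference was 0.95 ± 0.33 (SE), or 1.94-fold, with an adjusted p of 0.0877 by limma. It passed without HS IMF 2 (1.27, adjusted p = 0.00723), without JB IMF 2 (1.14, adjusted p = 0.0465) and with array weights, which give noisy arrays less influence (0.95, adjusted p = 0.0428).

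SLC2A1 had signals of 208, 227.2 and 397 in JB IMF and 396, 275 and 77.8 in HS IMF, against 409, 289 and 137 in JB SCF and 725.5, 149.8 and 172 in HS SCF. All 4 groups overlapped, and the group means of 8.05 in JB IMF, 8.01 in HS IMF, 7.94 in JB SCF and 8.10 in HS SCF on the log2 scale lay closer together than the SD of any group, which ran from 0.43 to 1.26. The log2 difference between IMF and SCF was 0.01 with a 95% interval from −0.91 to 0.94 (limma adjusted p = 0.988), an interval that holds differences of close to 2-fold either way. Its sign turned with the values as deposited (−0.14), with each array centred on its median (−0.04) and without single samples (−0.20 to 0.38). The exact permutation test of whether SLC2A4 and SLC2A1 changed unequally between the depots gave a difference of 0.94 on the log2 scale and a two-sided p of 0.180.

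Among the phosphorylase genes, the muscle isoform alone passed between the depots. PYGM, the phosphorylase that releases glucose 1-phosphate from muscle glycogen, had signals of 4433, 3792 and 5928 in JB IMF and 5574, 2848 and 6453 in HS IMF, against 22.45, 96.95 and 95.4 in JB SCF and 10.5, 1724 and 7.85 in HS SCF. Every IMF sample lay above every SCF sample, and 1 SCF sample, HS SCF 5, lay far above the other 5. The log2 difference was 5.78 ± 0.88 (SE), or 54.8-fold (limma adjusted p = 0.00153), and 6.80 without HS SCF 5. Since some SCF signals were at or below the 16 added before the logarithm, the fold depends on that constant. On the normalized scale JB SCF 4, HS SCF 4 and HS SCF 6 were at 5.25, 4.77 and 4.54. These values lay under the limit of 5.63 used in the filter on dim probe sets. The p-value of PYGM therefore rests in part on SCF values that count as dim.

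HS SCF 5 also stood out in part of the muscle fibre markers. Its ACTA1 (skeletal actin) signal was 7292, against 6.95 in HS SCF 4 and 26.3 in HS SCF 6. MYH1, TNNC2 and TNNI2 of fast fibres were at 3554, 6334 and 3035, and TNNC1 of slow fibres was at 1272. Other markers of both kinds were low in the same sample, with TNNT3, ACTN3 and ATP2A1 of fast fibres at 56.8, 12.1 and 5.93, MYL2 of slow fibres at 0.02 and myoglobin (MB) at 47.0. ENO3 and the brightest PFKM probe set in HS SCF 5, at 226 and 189, lay within the range of the other SCF samples. The second brightest PFKM probe set was highest of the SCF samples there, at 134, with 67.9 in HS SCF 6 as the next. The sample is also the one with the GAPDH 3′/5′ ratio of 4.06, and the part of either value in its PYGM signal was not tested.

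The general phosphorylases did not follow PYGM. PYGL, the liver form, had a log2 difference of −0.39 (limma adjusted p = 0.238), and PYGB, the brain form, one of −0.04 (adjusted p = 0.941). PYGM changed by 6.16 log2 units more than PYGL and by 5.82 more than PYGB, each with an adjusted p of 0.00271 in the two-sided exact permutation test over the 12 samples. That value rests on a p of 0.00216, the smallest that 924 arrangements of 6 and 6 samples can give. Of the other glycogen genes, PPP1R3C, a subunit that directs a phosphatase to glycogen, rose by 1.42 ± 0.27 (SE, limma adjusted p = 0.00633). Of its other probe sets 1 rose by 1.19 (adjusted p = 0.0198) and 1 had 0.34 (adjusted p = 0.410). PHKG2, the catalytic subunit of the liver form of phosphorylase kinase, fell by 0.78 ± 0.19 (SE, adjusted p = 0.0215). PGM1, which turns glucose 1-phosphate into glucose 6-phosphate, rose by 1.63 ± 0.32 (SE, adjusted p = 0.00710), with 1.25 (adjusted p = 0.112) for its other probe set.

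Among the glycolysis genes the muscle isoforms PFKM and ENO3 were among the members with the largest depot differences. PFKM, the subunit of muscle phosphofructokinase, which commits sugar to glycolysis, had signals of 5275, 3693 and 4524 in JB IMF and 4685, 2147 and 4061 in HS IMF, against 129, 212 and 209 in JB SCF and 133, 189 and 253 in HS SCF. No IMF sample came near the SCF range. The log2 difference was 4.43 ± 0.24 (SE), or 21.5-fold (limma adjusted p = 3.79e-07). The second brightest PFKM probe set had 1722, 1051 and 1361 in JB IMF and 1237, 466 and 1719.9 in HS IMF, against 46.1, 42.3 and 61.9 in JB SCF and 20.5, 134 and 67.9 in HS SCF, again without overlap (4.14 ± 0.38 SE, adjusted p = 2.70e-05).

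The third PFKM probe set was dim, with a highest signal of 264 in HS IMF 3 and a lowest of 10.02 in HS IMF 2. Its depots overlapped through HS IMF 2, and its log2 difference was 1.40 ± 0.55 (SE), and 1.89 without HS IMF 2. All its SCF values lay under the limit for dim probe sets, so it entered the test through IMF alone. It did not pass, and no p is given for it. The general forms of phosphofructokinase, PFKL of liver and PFKP of platelets, had log2 differences of −0.49 (limma adjusted p = 0.0898) and −0.15 (adjusted p = 0.789). PFKM changed by 4.91 more than PFKL and by 4.58 more than PFKP on the log2 scale (adjusted p = 0.00271 each, two-sided exact permutation test).

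ENO3, the muscle subunit of enolase, had signals of 7226, 4961 and 7016 in JB IMF and 8732, 3425 and 8819.7 in HS IMF, against 117, 111 and 264 in JB SCF and 175, 226 and 108 in HS SCF. The 2 depots were far apart in both breeds, and JB SCF 6 was the highest of the SCF samples. The log2 difference was 5.27 ± 0.29 (SE), or 38.5-fold (limma adjusted p = 3.84e-07). ENO1, the enolase of most tissues, had a log2 difference of −0.73 (adjusted p = 0.0639), and ENO3 changed by 6.00 more than ENO1 (adjusted p = 0.00271, two-sided exact permutation test).

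Of the 3 other muscle isoforms of sugar metabolism that were measured, PGAM2 and FBP2 were higher in every IMF sample than in any SCF sample, and ALDOA did not pass. PGAM2, the muscle phosphoglycerate mutase, had a signal between 1510.5 and 5445 in IMF, against 0.12 to 78.2 in SCF. Its difference was 6.57 with 16 added before the logarithm and 8.30 with 1 added. FBP2, the fructose bisphosphatase of muscle, had a signal between 398 and 2261 in IMF, against 0.24 to 18.6 in SCF, with differences of 5.76 with 16 added and 7.42 with 1. All SCF signals of FBP2, and the SCF mean of PGAM2 on the log2 scale, lay under the limit for dim probe sets. Both genes entered the test through IMF, and no p is given for either. The sizes for both genes are set largely by the added constant. ALDOA, the aldolase of muscle and many other tissues, had a difference of 0.65 (limma adjusted p = 0.0708). PHKA1, PHKG1 and PPP1R3A of the same list were not measured.

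**Figure D2:**
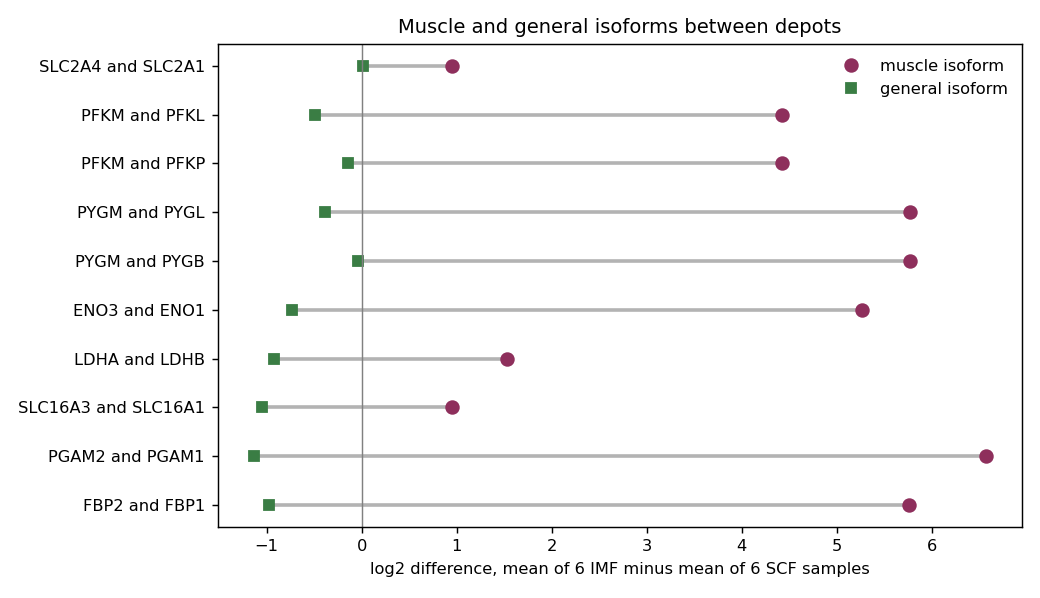
For each of 10 pairs the horizontal axis gives the log2 difference between the mean of 6 IMF and the mean of 6 SCF samples, with a circle for the muscle isoform and a square for its general counterpart. The genes drawn as muscle isoforms lie between 0.95 and 6.57, and the general ones between −1.13 and 0.01. SLC2A4, drawn on the muscle side, serves fat as well as muscle cells. The 6.57 is that of PGAM2, a size set largely by the added constant.

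Of 12 pairs of a muscle and a general isoform listed, 10 had both genes measured, and in 9 of the 10 the muscle isoform changed by more than its partner at an adjusted p below 0.05 (two-sided exact permutation test, Benjamini-Hochberg over the 10 pairs). The pair that did not pass was SLC2A4 with SLC2A1. PGAM2 changed by 7.70 log2 units more than PGAM1 with 16 added and by 9.44 with 1, and FBP2 by 6.74 more than FBP1 with 16 and by 8.61 with 1, so that neither size is fixed by the data. PGAM2 and FBP2 count among the 9 although both entered through IMF, and their pairs are not taken as support. Such a difference shows unequal change between the depots and not which isoform is more abundant, since signals of different probe sets are not on a common scale. Pairs that share a gene, and the muscle isoforms among themselves, vary together over the same 12 samples and are not separate tests. The PYGM pairs rest in part on dim SCF values. Each pair was tested through the brightest probe set of each gene alone.

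By the sign of the difference, the general isoforms as a list lay mostly on the other side. Of 23 listed genes 16 were tested, 1 rose (PPP1R3C) and 2 fell (PHKG2 and SLC16A1), and 13 did not pass. Over all probe sets 4.66% rose and 6.33% fell, so the calls alone do not set the list apart. The difference was below 0 in 15 of the 16, and the median was −0.47 on the log2 scale, against −0.06 over all probe sets tested. The split of 15 and 1 was the same with the values as deposited and with each array centred on its median, and 13 of the 16 were below 0 without HS IMF 3 and HS SCF 4. Without JB SCF 6 and HS SCF 5, the SCF samples of highest muscle fibre markers, 1 rose and 0 fell by limma.

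Among enzymes with no separate muscle gene, 2 of 9 tested rose between the depots and 0 fell, with a median log2 difference of 0.63. The shares over all probe sets were 4.66% higher and 6.33% lower. PKM, the pyruvate kinase whose splice forms serve muscle and other tissues, had signals of 697, 736 and 659 in JB IMF and 909.7, 698 and 961 in HS IMF, against 232, 449 and 285 in JB SCF and 239, 132 and 191 in HS SCF. Its depots did not overlap, and it rose by 1.78 ± 0.24 (SE, limma adjusted p = 0.00054). The second was PGM1, and GAPDH (0.65, adjusted p = 0.0572) and UGP2 (0.63, adjusted p = 0.0606), the maker of the glucose donor for glycogen, did not pass.

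Of the lactate dehydrogenase genes, LDHB fell, and LDHA rose in 1 of its 3 probe sets, the brightest. The brightest LDHA probe set had signals of 9507, 7029 and 8247 in JB IMF and 10424, 5342 and 7217 in HS IMF, against 3679, 3967 and 5470 in JB SCF and 2299.9, 2103 and 1443 in HS SCF. JB SCF 6 lay above HS IMF 2 as deposited, and on the normalized scale every IMF sample lay above every SCF sample. The group means were 12.93 ± 0.10 in JB IMF, 12.99 ± 0.38 in HS IMF, 11.95 ± 0.42 in JB SCF and 10.89 ± 0.40 in HS SCF on the log2 scale (SD, n = 3 each), and those of the 2 IMF groups differed by less than the SD in HS IMF. LDHA rose by 1.54 ± 0.21 (SE), or 2.90-fold (limma adjusted p = 0.000701).

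LDHB had signals of 8144, 11697 and 4729 in JB IMF and 4446, 6072 and 5428 in HS IMF, against 14166, 13953 and 12217 in JB SCF and 9369, 12609 and 14898.5 in HS SCF. The IMF samples were lower except JB IMF 2, which lay inside the SCF range, and the SCF samples were close to each other. LDHB fell by 0.92 ± 0.23 (SE), to 1.89-fold lower in IMF (limma adjusted p = 0.0240). This call was lost when any of 6 samples was left out, with adjusted p-values of 0.0515 without HS SCF 5 to 0.0636 without HS SCF 6, and without JB SCF 6 and HS SCF 5 together (0.0913), at differences between −0.76 and −0.95. LDHA changed by 2.46 log2 units more than LDHB (adjusted p = 0.00271, two-sided exact permutation test), and the per-sample difference between them did not overlap between the depots.

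**Figure D3:**
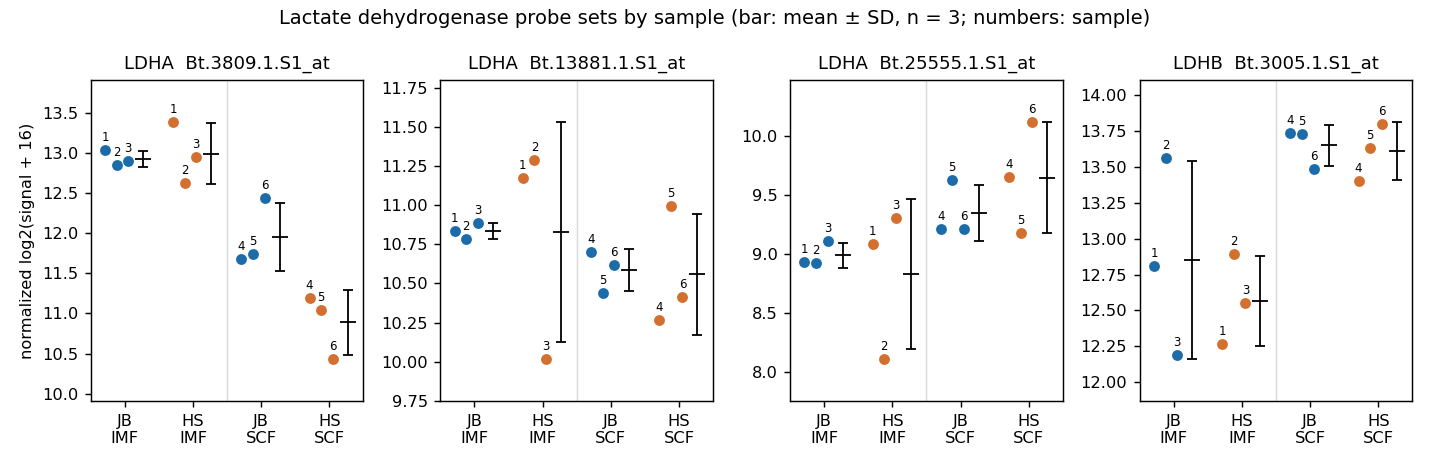
The 3 LDHA probe sets and the LDHB probe set are plotted as normalized log2(signal + 16) in each of the 12 samples, with the mean and SD of each group of 3; the vertical axes differ and do not start at 0. The leftmost LDHA probe set is higher in every IMF sample, the middle ones differ less or lie lower in IMF, and LDHB is lower in IMF except in JB IMF 2.

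The 3 LDHA probe sets did not give the same answer. The second brightest ran from 589.9 to 2349.5 in IMF, against 1199 to 2037 in SCF, with a log2 difference of 0.26 ± 0.23 (SE, limma adjusted p = 0.511). The dimmest ran from 233 to 603 in IMF, against 603 to 1161 in SCF, and its difference of −0.59 ± 0.23 (SE, adjusted p = 0.130) ran the other way. It passed as lower with the values as deposited (−0.79, adjusted p = 0.0497) and with array weights (−0.68, adjusted p = 0.0492). The annotation used here does not say which transcript or strand each probe set reads, so the direction given for LDHA is that of its brightest probe set alone.

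SLC16A3, the lactate exporter of glycolytic cells, had signals of 162, 107 and 189 in JB IMF and 312, 159 and 136 in HS IMF, against 140.1, 151 and 119.6 in JB SCF and 89.7, 54.7 and 38.9 in HS SCF. The depots overlapped in JB and were apart in HS, where all 3 IMF samples lay above all 3 SCF samples. From high to low the group means were 7.95 ± 0.35 in HS IMF, 7.30 ± 0.33 in JB IMF, 7.14 ± 0.11 in JB SCF and 6.20 ± 0.51 in HS SCF on the log2 scale (SD, n = 3 each), with the 2 JB groups closer together than the SD in JB IMF. It rose over both breeds by 0.95 ± 0.21 (SE), or 1.94-fold (limma adjusted p = 0.0144), a call lost with the values as deposited (0.79, adjusted p = 0.0565) and without JB SCF 6 and HS SCF 5 (0.90, adjusted p = 0.0886). Of its other probe sets, the second brightest had a difference of 0.39 ± 0.31 (SE, adjusted p = 0.448), and the dim one left out of the test had −0.09.

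SLC16A1 (MCT1), the monocarboxylate transporter of many tissues, ran from 58.1 to 218 in IMF, against 198 to 550.01 in SCF. It fell by 1.04 ± 0.26 (SE, limma adjusted p = 0.0268), with overlap between the depots. SLC16A3 changed by 2.00 log2 units more than SLC16A1 (p = 0.00866, adjusted p = 0.00962, two-sided exact permutation test).

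**Figure D4:**
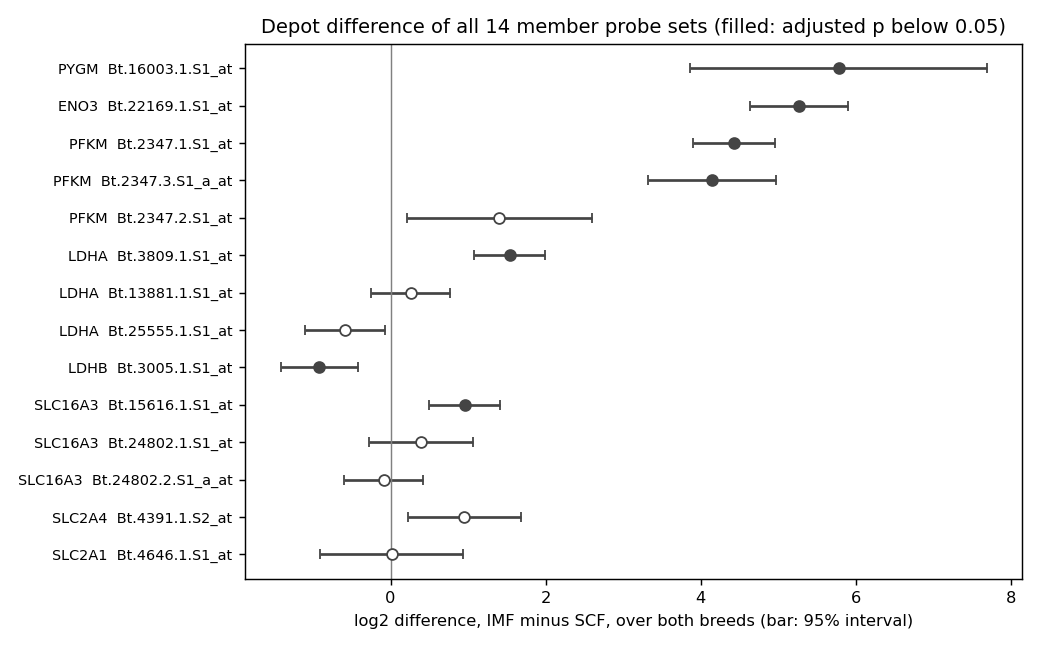
The log2 difference IMF minus SCF over both breeds is shown for all 14 member probe sets with its 95% interval, filled where the limma adjusted p was below 0.05. PYGM, ENO3 and 2 of 3 PFKM probe sets lie above 4, and the third PFKM probe set and the members for uptake and lactate lie between −0.92 and 1.54.

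Further along, 3 of 12 tested genes for the use of pyruvate in mitochondria passed between the depots, where 11% of all probe sets did. Of these 2 rose and 1 fell, and the median of the 12 was 0.07. PDHX, a structural subunit of pyruvate dehydrogenase, rose by 0.62 ± 0.16 (SE, limma adjusted p = 0.0299), and PDP1, the phosphatase that activates this enzyme, by 0.78 ± 0.21 (adjusted p = 0.0352). PC, pyruvate carboxylase, which feeds oxaloacetate for fat and glucose synthesis, fell by 1.37 ± 0.36 (SE, adjusted p = 0.0304), while 2 dim and untested PC probe sets had 1.38, without overlap between the depots, and −0.13. MPC1, a subunit of the mitochondrial pyruvate carrier, had −0.69 (adjusted p = 0.0537). With the values as deposited 0 of the 12 rose and 2 fell by limma, and without JB SCF 6 and HS SCF 5 none passed in either direction. Among regulators of glucose use 1 of 13 tested rose and 0 fell: MLXIP, a glucose-responsive transcription factor (0.88 ± 0.20 SE, adjusted p = 0.0153), a call not made with the values as deposited. MLXIPL (ChREBP), its relative in liver and fat, had −0.67 (adjusted p = 0.175), and MEF2C and MEF2A, muscle transcription factors that also act on SLC2A4, had 0.35 (adjusted p = 0.187) and 0.75 (adjusted p = 0.191).

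The depot difference was then taken within each breed. In JB, 4 of 13 member probe sets passed, all higher in IMF, where 3.07% of all probe sets passed and 2.15% as higher. In HS 6 of 13 passed, all higher, where 3.32% of all probe sets passed and 1.8% as higher. PFKM, ENO3 and PYGM passed in both breeds, with log2 differences of 4.58, 5.24 and 5.88 in JB and 4.27, 5.29 and 5.67 in HS. For PYGM these calls were fragile: the adjusted p was 0.0235 in JB and 0.0309 in HS by limma, and it was lost when any of 5 samples was left out, at 0.0687 to 0.112 in JB and up to 0.139 in HS. LDHA rose by 2.10 ± 0.30 (SE) in HS (adjusted p = 0.00221) and differed by 0.97 ± 0.30 in JB (adjusted p = 0.123), and SLC16A3 rose by 1.76 ± 0.30 (SE) in HS (adjusted p = 0.00791) and differed by 0.15 in JB (adjusted p = 0.935). The call of SLC16A3 in HS was lost with only the compared groups in the fit (adjusted p = 0.103) and without JB SCF 6 and HS SCF 5 (0.0632). Whether these differences between the breeds were themselves beyond the spread is given by the interaction below.

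Between the breeds, no member probe set passed in either depot. Within IMF 0 of 13 passed by limma (1 at an unadjusted p below 0.05), against 0.0238% of all probe sets, and within SCF 0 of 13 (2 at an unadjusted p below 0.05), against 0.00595%. In IMF the muscle isoforms overlapped between JB and HS, with log2 differences of 0.18 for PFKM, −0.22 for ENO3 and −0.24 for PYGM, and their 95% intervals ran from −0.57 to 0.92, −1.12 to 0.68 and −2.94 to 2.46. The p-values therefore do not show that the breeds had equal levels. The JB samples of IMF lay closer together than the HS samples for these genes, with an SD of 0.18 in JB and 0.66 in HS for PFKM, and of 0.18 in JB and 0.73 in HS for ENO3. This was not particular to these genes. Over all probe sets the HS IMF arrays had a mean correlation with their group of 0.862 to 0.898, against 0.963 to 0.974 in JB IMF. LDHB went the other way, with an SD of 0.69 in JB IMF and 0.31 in HS IMF.

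The largest breed differences of members were in lactate genes of SCF. LDHA in SCF was at 3679, 3967 and 5470 in JB and 2299.9, 2103 and 1443 in HS, so that every JB sample lay above every HS sample, and its log2 difference was 1.06 ± 0.30 (SE), or 2.09-fold (unadjusted p = 0.00379, adjusted p = 1.00 by limma). SLC16A3 in SCF was at 140.1, 151 and 119.6 in JB and 89.7, 54.7 and 38.9 in HS, likewise without overlap, with a difference of 0.95 ± 0.30 (SE, unadjusted p = 0.00825, adjusted p = 1.00). Complete separation of 3 from 3 samples was seen in 12% of all probe sets in this comparison. The difference of LDHA stayed between 0.82 and 1.22 when each sample was left out in turn, and that of SLC16A3 between 0.72 and 1.23. The 2 other LDHA probe sets had −0.30 and 0.03 in SCF, and the 2 other SLC16A3 probe sets −0.0082 and −0.0032.

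In IMF the order of the breeds was the other way round for SLC16A3. Its signals of 162, 107 and 189 in JB IMF and 312, 159 and 136 in HS IMF overlapped as deposited, and after normalization every JB sample lay below every HS sample, with the highest JB sample at 7.56 and the lowest HS sample at 7.59 on the log2 scale. The log2 difference was −0.66 ± 0.30 (SE, unadjusted p = 0.0494, limma adjusted p = 0.485), and its second brightest probe set had −0.89 (adjusted p = 0.491), also without overlap, which 13.8% of all probe sets showed in IMF. The value of the second probe set was −0.24 without HS IMF 3, the array with the lowest median signal. LDHA in IMF differed by −0.06 between JB and HS.

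**Figure D5:**
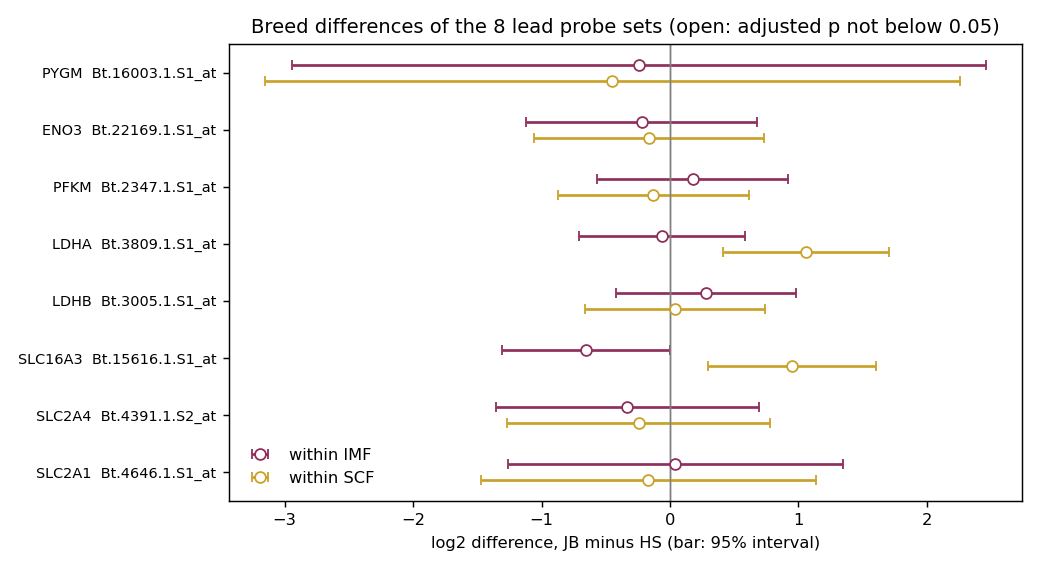
For the brightest probe set of each of the 8 genes, the log2 difference JB minus HS is given with its 95% interval, within IMF and within SCF; all points are open because no limma adjusted p was below 0.05. LDHA and SLC16A3 lie near 1 in SCF, and SLC16A3 lies below 0 in IMF.

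The interaction, which is the JB minus HS difference of IMF less that of SCF, was −1.60 ± 0.42 (SE) for SLC16A3 (unadjusted p = 0.00262) and −1.12 ± 0.42 (SE) for LDHA (unadjusted p = 0.0202), and the adjusted p was 0.990 for both by limma. None of the 13 member probe sets and none of the 16811 probe sets passed (2 members and 359 probe sets at an unadjusted p below 0.05). The breeds were thus not shown to differ in the depot difference of any member.

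The members also differed from each other in how the 6 IMF samples were ordered. All orders given here are those of the brightest probe set of a gene. HS IMF 2 was the lowest and JB IMF 2 the second lowest of the 6 for SLC2A4, PFKM, PYGM, ENO3 and LDHA, and the same 2 samples were the lowest in the mean of the muscle fibre markers. In the second brightest LDHA probe set HS IMF 2 was instead the highest and HS IMF 3 the lowest. LDHB had another order, with JB IMF 3 lowest, HS IMF 1 second lowest, HS IMF 2 second highest and JB IMF 2 highest, and the mean of the adipocyte markers put these 4 samples in the same places. SLC2A1 followed neither order, with HS IMF 3 lowest and HS IMF 1 highest. In SCF the orders differed between genes: PYGM and SLC2A4 were highest in HS SCF 5, ENO3 and LDHA in JB SCF 6, PFKM and LDHB in HS SCF 6. These orders are a description of 6 samples, and no test was made of them.

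The genes whose pattern over the 12 samples was most like that of a member were taken by Pearson's r. Where a member differed between the depots, that difference enters r, so the values within IMF and within SCF (6 samples each) are given too. For PYGM they were TNNI2 (0.976; 0.880 in IMF and 0.886 in SCF), MYH1 (0.972; 0.573 in IMF and 0.889 in SCF) and TNNC1 (0.970; 0.744 in IMF and 0.874 in SCF). For SLC2A4 they were HHATL (0.949), DNAJA4 (0.943) and USP28 (0.933), with 0.939 to 0.949 in IMF and 0.430 to 0.738 in SCF. For LDHA they were TPM2 (0.930; 0.358 in IMF and 0.789 in SCF), ACTA2 (0.929; 0.123 in IMF and 0.890 in SCF) and another TNNC1 probe set (0.928; 0.735 in IMF and 0.739 in SCF). LDHB was most like ITM2B (0.983), SLC25A17 (0.978) and MTURN (0.972), at 0.973 to 0.989 in IMF and 0.248 to 0.883 in SCF. SLC16A3 was most like NR4A1 (0.918; 0.497 in IMF and 0.996 in SCF), ATF3 (0.877; 0.754 in IMF and 0.764 in SCF) and ADRA2A (0.877; 0.753 in IMF and 0.816 in SCF). SLC2A1 was most like IL17RB (0.850; 0.891 in IMF and 0.867 in SCF), LIN37 (0.840; 0.772 in IMF and 0.934 in SCF) and PROCR (0.816; 0.683 in IMF and 0.959 in SCF). All these values share the same arrays and are a description.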

How the data were processed

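The deposited series table holds linear intensity values of 24128 probe sets in 12 samples. Per the submitters' processing notes the tools were GCOS 1.1.1 and Affymetrix Expression Console 1.1; how the authors summarized probes into these intensity values, and whether they normalized them, is not given in the sources used here. Symbols come from the platform annotation given with the series.

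Intensities were turned into log2(signal + 16) and quantile normalized. The 112 control probe sets and the dimmest 30% of the other 24016 were then left out, which left 16811. limma 3.58.1 (R 4.3.3; lmFit and eBayes) fitted 4 group means over the 12 samples, with Benjamini-Hochberg adjustment within a comparison and a threshold of 0.05. Isoform pairs were tested with the two-sided exact permutation test (scipy 1.17.1) of the per-sample log2 difference. The procedure was tested on simulated data.

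Named were all member probe sets, the partner isoforms, up to 4 genes of smallest p of each pathway list and the 3 genes most like each of 6 members; MLXIPL, GAPDH, UGP2 and MPC1 fall under this rule. The members, lists and alternatives were chosen with earlier results of these data known. Other settings were the values as deposited, median centring, a pseudocount of 1, other dim filters, a trended and robust variance, array weights, only the compared groups, a replicate block, each sample left out, 2 pairs of samples left out and other probe sets.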

Additional observations from a re-analysis of the deposited data

Results flagged for a closer look

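In the 14 member probe sets the highest and the lowest of the 6 samples of each depot were compared with the next sample, as the gap divided by the range of the 6 on the log2 scale, and a ratio above Dixon's 95% critical value marks a sample far from the others. Of 28 such series of 6 samples 5 held one, where chance gives about 1 in 20. For PYGM in SCF the highest sample was HS SCF 5, at a ratio of 0.646, and for SLC2A4 in SCF it was the same sample, at 0.628. For the PFKM probe set of lowest signal the lowest SCF sample was HS SCF 4, at 0.821. For the SLC16A3 probe set of second highest signal the highest IMF sample was HS IMF 3, at 0.779. For the LDHA probe set of lowest signal the lowest IMF sample was HS IMF 2, at 0.679. Without HS SCF 5 the depot difference of PYGM was 6.80 on the log2 scale, against 5.78 with it.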

How the results depend on the processing

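The count of member probe sets called between the depots, 7, was 5 to 10 over 9 other settings and 6 to 9 with each sample left out. Within JB it was 4, with 8 under array weights, where 4340 of all probe sets were called in place of 516. It was 3 to 4 with each sample left out, and the 6 within HS were 4 to 6 over 10 settings and 5 to 7 with each sample left out. In both breed comparisons and the interaction 0 members were called by limma under every setting run. All 9 isoform pairs that passed did so under the 5 other settings and the 12 with a sample left out. They include those of PGAM2 and FBP2, which entered through IMF. Every one of these settings used the brightest probe set of each gene. The PFKM, LDHA and SLC16A3 pairs were thus not tried on other probe sets. Between the depots these had 4.14 and 1.40 for PFKM, 0.26 and −0.59 for LDHA, and 0.39 and −0.09 for SLC16A3. SLC2A4 with SLC2A1 passed under none (adjusted p 0.0762 to 0.635, exact permutation test).

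Taken through its dimmest probe set, LDHA had the other sign (−0.59 over both breeds, −0.82 within HS), and neither value passed by limma in the main setting. SLC16A3 through its dimmest probe set, left out of the test, had −0.086 and −0.11. Its 95% interval over both breeds ran from −0.60 to 0.42, so no direction is shown. The cause was not tested. PYGM within HS lost its call with array weights (adjusted p = 0.306), with only the compared groups (0.161) and without HS IMF 3 and HS SCF 4 (0.137), and within JB with a pseudocount of 1 (0.0571). SLC16A3 within HS lost its call with only the compared groups (0.103) and without JB SCF 6 and HS SCF 5 (0.0632). SLC2A1 had a depot difference of −0.38 to 0.62 over 9 settings. Over all probe sets 1848 were called between the depots, 784 higher and 1064 lower, 3154 with array weights and 800 without JB SCF 6 and HS SCF 5 (450 higher, 350 lower); without normalization 579 were called higher and 1318 lower, and the median difference moved from −0.06 to −0.19, and between the breeds in IMF from 0.10 to 0.38. Within HS 558 became 184 with array weights and 158 with only the compared groups, and 218 without JB SCF 6 and HS SCF 5, and within JB 516 became 1038 with only the compared groups, 842 without HS IMF 3 and HS SCF 4 and 221 without JB SCF 6 and HS SCF 5. The 4 probe sets called between the breeds in IMF were 0 to 5 over the other settings, the 1 in SCF was 0 to 12 and the 0 for the interaction 0 to 1. With each sample left out the depot count was 923 to 2338 over both breeds, 218 to 712 within JB and 191 to 1117 within HS.

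Deviations of JB and HS samples with the same replicate number correlated at −0.28 to 0.12. That check sets samples of different breeds side by side, so it cannot show whether IMF and SCF samples came from the same animals. With the replicate block 0 members were called in the breed comparisons and the interaction, and 2 probe sets in IMF, 1 in SCF and 0 for the interaction in all. The brightness of PYGM, PGAM2 and FBP2 in SCF limits their folds, which rest on signals near or below the added constant.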
